A study of Danio rerio with 10 samples.

Results

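Adult muscle of zebrafish carrying human TPM3(E151A) was compared, gene by gene, with adult muscle of zebrafish carrying human TPM3(WT). Of 32265 genes listed, 16865 reached 1 FPKM (fragments per kilobase of a transcript in proportion to library size, a relative level) in 1 genotype or in both, and all of these were taken. The fish were AB strain zebrafish of 6 months with no treatment. The mutant fish carried Tg(MLC2:TPM3(E151A);myl7:EGFP), in which a glutamate of human tropomyosin 3 is replaced by alanine, and they were set against fish that carried Tg(MLC2:TPM3(WT);myl7:EGFP). Both groups thus express human TPM3 from the muscle promoter MLC2 beside their own tropomyosins, and both carry green fluorescent protein in the heart. The controls were not fish without a transgene. Each genotype had 2 libraries, which the authors combined into 1 FPKM per gene, so no spread between fish and no p-value can be given, and every difference below is a description of these 2 columns. Neither the line, the sex nor the number of fish behind a library is stated in the labels or the methods, and human TPM3 is not among the genes of the tables, so the level of the transgene was not checked. Adult muscle with TPM3(E151G) (2 libraries, glycine in place of the same glutamate) and embryos of 2 days (whole embryo by the tissue label, muscle of embryos by the text of the study, 1 library per genotype) of the same series are given beside some genes. The whole series has 10 libraries.

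Tropomyosin is a coiled coil that lies along the actin filament and, with troponin, sets when myosin may bind it. TPM3 is the form of slow fibres, and changes in it cause nemaline myopathy and congenital fibre type disproportion in people. Chaperones of the endoplasmic reticulum (ER), a further group described here, fold secreted and membrane proteins and are raised by the unfolded protein response in many tissues. Genes of the testis, of the oocyte and of motile cilia are known mainly from gonads and ciliated epithelia, and skeletal muscle fibres carry no motile cilia.

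The change of a gene is given as the log2 of (FPKM + 1) in TPM3(E151A) over (FPKM + 1) in TPM3(WT), which understates the change of low genes. In TPM3(E151A), 1670 of the 16865 genes (9.90%) stood higher and 3231 (19.2%) stood lower by at least 2-fold. The median log2 ratio over all genes was -0.22, with the quartiles at -0.83 and 0.41. When the columns were rescaled by the median of ratios, so that a typical gene is level, the median became 0.09 and the counts became 2499 higher and 1896 lower. The share of higher genes among all genes past 2-fold was then 56.9%, against 34.1% with the columns as deposited. The count of lower genes thus depends on the scaling, and each list below is to be read against the median of -0.22. The mitochondrial chromosome held 36.2% of the summed FPKM in TPM3(E151A), 47.6% in TPM3(E151G) and 25.9% in TPM3(WT). Of the genes compared, 107 were higher and 27 were lower by 8-fold or more, and 866 of the 1670 higher genes had an FPKM under 1 in TPM3(WT).

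**Figure D1:**
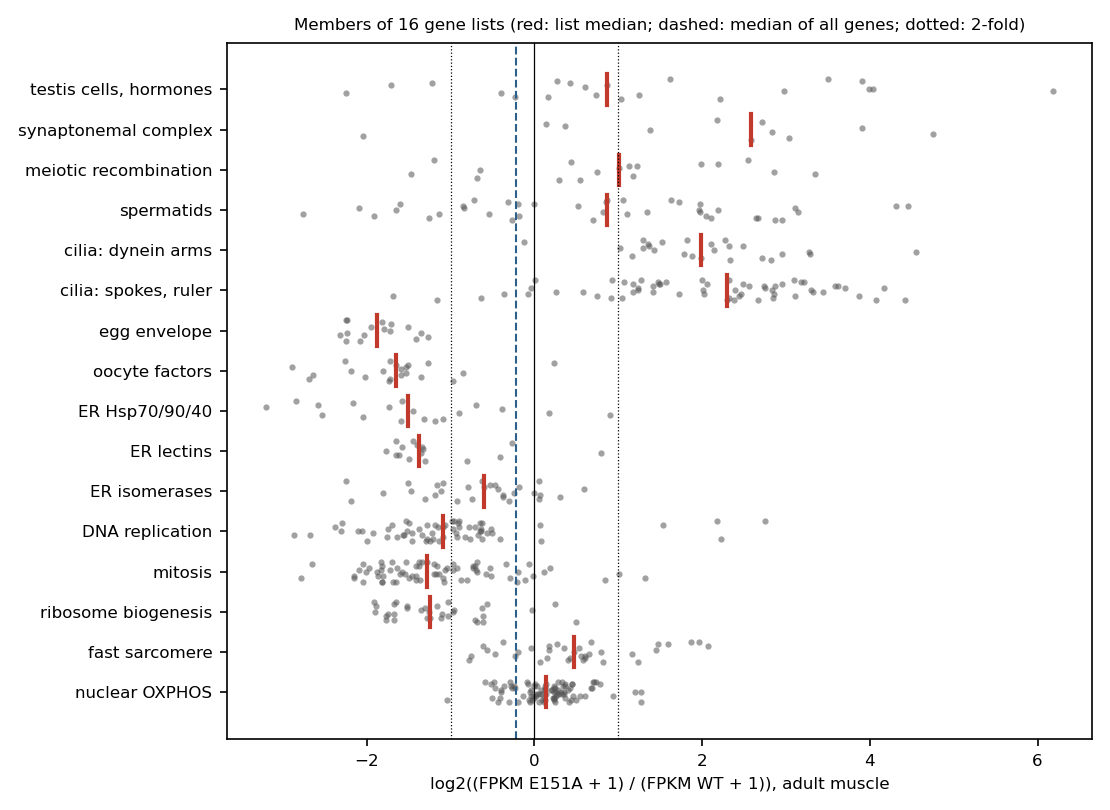
Log2 ratio of FPKM + 1 in TPM3(E151A) over TPM3(WT) for every compared member of 16 gene lists, 1 point per gene, with the list median in red. Cilia genes lie to the right (medians 1.99 and 2.30), and egg envelope and ER Hsp70, Hsp90 and Hsp40 genes lie to the left (medians -1.88 and -1.51), while the dashed line marks the median of all genes, -0.22.

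The specimens carried the markers of fast skeletal muscle at high levels in both genotypes. Creatine kinase ckmb had 10066 FPKM in TPM3(E151A) and 10613 FPKM in TPM3(WT), and the calcium buffer pvalb3 had 11039.9 and 7491 FPKM. Of 35 fast sarcomere genes, 8 were higher by 2-fold or more and 0 lower, with a median of 0.47, and their summed FPKM was 67719 in TPM3(E151A) against 49974 in TPM3(WT). The parvalbumin pvalb1 stood at 6943 FPKM in TPM3(E151A) and 2535 FPKM in TPM3(WT) (log2 1.45). The fast light chain mylz3 stood at 7541 and 4954 FPKM (log2 0.61), and the fast myosin heavy chain myhc4 at 1438 and 1688 FPKM (log2 -0.23). Apart from pvalb1 the most abundant fast genes thus lay within 2-fold, and members past it, such as the troponin I gene tnni2a.2 (18.5 against 3.66 FPKM, log2 2.07) and the thick filament gene mybpc2a (19.9 against 6.56 FPKM, log2 1.47), were far less abundant.

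Genes of slow fibres, where TPM3 normally works, had a median of 0.41 over 26 genes, with 3 higher and 1 lower by 2-fold. Of all genes, 9.90% were higher and 19.2% lower, so the share of higher slow fibre genes lay near that of all genes. The counts of the further lists here are to be read beside the same shares. The slow myosin binding protein mybpc1 had 51.1 FPKM in TPM3(E151A) and 19.3 FPKM in TPM3(WT) (log2 1.36), the oxygen store myoglobin (mb) had 156 and 75.8 FPKM (log2 1.03), and slow myosin smyhc2 had 9.27 and 9.73 FPKM (log2 -0.06). The calcium pump atp2a2b of slow muscle and heart went the other way, with 9.10 FPKM in TPM3(E151A) against 28.7 in TPM3(WT) (log2 -1.55). Of 39 titin, nebulin and Z-disc genes, 7 were higher by 2-fold and 0 lower (median 0.32). The titin cap tcap had 423 FPKM in TPM3(E151A) and 146 FPKM in TPM3(WT) (log2 1.53), the stretch-induced gene ankrd1a had 8.50 and 1.04 FPKM (log2 2.22), and the actin severing protein cfl2, itself a nemaline myopathy gene, had 106 and 39.3 FPKM (log2 1.402). Triad and calcium release genes had a median of 0.14 over 33 genes with 2 higher and 1 lower, and acetylcholine receptor and synapse genes had a median of 0.41 over 11 genes with 0 higher and 1 lower. Of 21 genes of myogenesis, 3 were higher and 1 lower by 2-fold (median 0.38). Among the higher ones, the determination factor myod1 had 32.8 FPKM in TPM3(E151A) and 12.4 FPKM in TPM3(WT) (log2 1.33). Myogenin (myog) had 18.1 and 7.94 FPKM (log2 1.096).

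Of 5 endogenous tropomyosin genes 4 lay below 0 with the columns as deposited, of which tpm4a turned to the other side under median-of-ratios scaling. The fast muscle form tpma had 3042 FPKM in TPM3(E151A) and 5134 FPKM in TPM3(WT) (log2 -0.76), and the zebrafish tpm3 had 86.8 and 159 FPKM (log2 -0.87). The genes tpm4b (2.06 against 5.27 FPKM, log2 -1.03) and tpm4a (28.1 against 34.5 FPKM, log2 -0.29) lay on the same side, tpm4b past 2-fold. The tropomyosin gene tpm2 was the exception, with 162 FPKM in TPM3(E151A) and 127 FPKM in TPM3(WT) (log2 0.36). How reads of the human transgene were shared with these genes in the counting is not known. In TPM3(E151G) muscle tpma stood at 2763 FPKM and tpm3 at 130.5 FPKM.

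Genes of the testis were higher in TPM3(E151A), from its hormone-making and supporting cells through meiosis to the sperm tail. The Leydig cell hormone insl3, at chr2:24828623-24849534 of GRCz11, had 78.0 FPKM in TPM3(E151A) and 0.0900 FPKM in TPM3(WT) (log2 6.18). The male sex determination factor dmrt1, at chr5:44344663-44391191, had 27.1 and 0.775 FPKM (log2 3.99). The gonadal growth factor gsdf of fishes had 30.3 and 1.09 FPKM (log2 3.91), and anti-Müllerian hormone (amh), which Sertoli cells make, had 10.97 and 0.0534 FPKM (log2 3.51). These 4 genes were near or under 1 FPKM in TPM3(WT). Of the steroid-making genes, star, which brings cholesterol into mitochondria, had 18.7 FPKM in TPM3(E151A) and 0.204 FPKM in TPM3(WT) (log2 4.03), and cyp11c1, the 11-beta-hydroxylase of the fish androgen 11-ketotestosterone, had 7.23 and 0.0502 FPKM (log2 2.97). Others that ovary and testis share went the other way. The side chain cleavage enzyme cyp11a1 had 10.7 FPKM in TPM3(E151A) against 37.1 FPKM in TPM3(WT) (log2 -1.71), hsd3b2 had 2.62 against 16.2 FPKM (log2 -2.25) and cyp17a1 had 13.3 against 32.2 FPKM (log2 -1.22). Over the whole list, 10 of 21 compared genes passed 2-fold on the higher side and 3 on the lower side, beside 9.90% and 19.2% of all genes, and the median was 0.86. With no FPKM minimum the median was 0.64 over 28 genes. Members such as insl3, dmrt1, amh, star and cyp11c1 reached 1 FPKM only through TPM3(E151A) and could only lie above 0. The direction of the list was thus in part set by that minimum. In TPM3(E151G) muscle insl3 had 0.498, gsdf 0.686 and amh 0.0342 FPKM, so these testis genes were low there as well.

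Meiotic genes, which pair and recombine homologous chromosomes in germ cells of either sex, were higher in large part. Of 11 synaptonemal complex and meiotic cohesin genes, 8 were higher and 1 lower by 2-fold, with a median of 2.58 and a summed FPKM of 168 in TPM3(E151A) against 49.7 in TPM3(WT). The chromosome axis gene hormad1 had 28.9 FPKM in TPM3(E151A) and 0.110 FPKM in TPM3(WT) (log2 4.75), and sycp3, a lateral element protein, had 23.4 and 0.625 FPKM (log2 3.91). The central element gene syce2 had 29.4 and 2.71 FPKM (log2 3.03), and the meiotic cohesin subunit smc1b had 8.12 and 0.283 FPKM (log2 2.83). The cohesin subunit rec8b had 4.98 FPKM in TPM3(E151A) and was listed at 0 in TPM3(WT). The member past 2-fold the other way was sycp2l, known in mammals from oocytes, with 4.79 FPKM in TPM3(E151A) and 22.8 FPKM in TPM3(WT) (log2 -2.04). Of 17 recombination and telomere attachment genes, 9 were higher and 2 lower (median 1.004). The meiotic recombinase dmc1 had 9.55 FPKM in TPM3(E151A) and 0.0406 FPKM in TPM3(WT) (log2 3.34), the telomere attachment gene terb2 had 7.46 and 0.167 FPKM (log2 2.86), and spo11, which makes the meiotic breaks, had 2.69 and 2.02 FPKM (log2 0.29). The strand exchange partner psmc3ip was lower, with 11.3 FPKM in TPM3(E151A) against 33.1 FPKM in TPM3(WT) (log2 -1.47).

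Genes of spermatids and sperm followed, with 19 of 40 spermatid genes higher and 7 lower by 2-fold (median 0.86), and 5 of 5 genes of the acrosome, fusion and sperm channel list higher (median 2.80, or 1.24 over the 3 of them whose locus holds no other gene). The sperm tail gene odf3b had 30.1 FPKM in TPM3(E151A) and 0.418 FPKM in TPM3(WT) (log2 4.45), and cremb, whose mammalian counterpart drives spermatid transcription, had 24.96 and 0.308 FPKM (log2 4.31). The acrosome-associated gene spaca9 had 25.7 and 0.357 FPKM (log2 4.30), and dcst2, needed for sperm-egg fusion, had 10.9 and 0.0226 FPKM (log2 3.54). The 7 lower members of the spermatid list were tex2l, spata2l, tex2, spata18, spata13, tex10 and spata5l1, of which tex2 and tex10, for example, are known from many tissues. The testis kinase tssk6 had 5.25 FPKM and the ubiquitin ligase adaptor klhl10b.2 had 3.14 FPKM in TPM3(E151A), and both were listed at 0 in TPM3(WT). Among the 20 genes with the largest ratios that had a symbol, the alpha tubulin tuba7l stood at 79.5 FPKM in TPM3(E151A) against 0.0284 FPKM in TPM3(WT) (log2 6.29), and hsf5, a heat shock factor relative known for spermatogenesis, at 25.8 against 0.0430 FPKM (log2 4.69). In TPM3(E151G) muscle these 2 genes had 1.51 and 0.365 FPKM.

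Motile cilia and sperm tails share the axoneme, the microtubule core bent by dynein arms, and its genes were higher nearly throughout. Of 25 dynein arm genes and their assembly factors, 24 were higher by 2-fold or more and 0 lower (median 1.99). The exception was dynlrb1, a light chain that cytoplasmic dynein uses too, with 79.0 FPKM in TPM3(E151A) and 86.2 FPKM in TPM3(WT) (log2 -0.12). The outer arm intermediate chain dnai1.1 had 23.6 and 0.0505 FPKM (log2 4.55), the dynein attachment factor ccdc103 had 15.6 and 0.701 FPKM (log2 3.29), and the dynein assembly gene daw1 had 19.4 and 1.12 FPKM (log2 3.27). Heavy chains were low but higher in TPM3(E151A), such as dnah7 (6.26 against 0.456 FPKM, log2 2.32) and dnah9 (4.83 against 0.157 FPKM, log2 2.33). Of 61 genes of radial spokes, the ruler and nexin links and the central pair, 49 were higher and 2 lower (median 2.30), and their summed FPKM was 768 in TPM3(E151A), 132 in TPM3(E151G) and 204 in TPM3(WT). With no FPKM minimum their median was 2.05 over 63 genes. The microtubule filament gene tekt1, at chr15:34007332-34029384, had 36.5 FPKM in TPM3(E151A) and 0.757 FPKM in TPM3(WT) (log2 4.42), the spoke head gene rsph9 had 20.6 and 0.473 FPKM (log2 3.87), and the microtubule inner protein efhc2 had 22.8 and 0.416 FPKM (log2 4.07). The members lower by 2-fold were efcab11 (8.57 against 29.7 FPKM) and cfap97 (8.38 against 19.9 FPKM).

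Factors that switch on motile ciliogenesis were in part higher. The master factor foxj1a had 6.60 FPKM in TPM3(E151A) and 1.26 FPKM in TPM3(WT) (log2 1.75), rfx3 had 12.9 and 3.47 FPKM (log2 1.63), and rfx2, a main factor of the testis, had 9.62 and 12.3 FPKM (log2 -0.33). Of 10 such factors compared, 3 were higher and 0 lower by 2-fold (median 0.79). Intraflagellar transport and basal body genes, which non-motile cilia use as well, had 14 of 53 members higher and 0 lower (median 0.48). The transport train gene ift46 had 19.0 FPKM in TPM3(E151A) and 4.25 FPKM in TPM3(WT) (log2 1.93), while the motor kif3a had 5.90 and 12.6 FPKM (log2 -0.98). In embryos, whose motile cilia line several organs, 0 of 34 spoke, ruler and central pair genes were higher and 1 lower by 2-fold in TPM3(E151A), and the median was -0.04. Over all genes of the embryo comparison, 0.990% were higher and 0.996% lower by that much. Taking the meiosis, sperm and motile cilia lists as 1 set, 112 of 164 genes were higher and 12 lower by 2-fold in adults (median 1.55), which was 6.71% of all higher genes. Members of these lists that reached 1 FPKM only through TPM3(E151A) could only lie above 0, so their direction was in part set by that minimum.

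Genes of the oocyte were present in both genotypes and lower in TPM3(E151A). All 16 egg envelope genes were lower by 2-fold or more (median -1.88), and their summed FPKM was 1473 in TPM3(E151A), 908 in TPM3(E151G) and 5238 in TPM3(WT). The zona pellucida genes zp3a.2 (266 against 921 FPKM, log2 -1.79) and zp3b (158 against 754 FPKM, log2 -2.25) were the most abundant of them in TPM3(WT). Of 21 oocyte factors, 18 were lower and 0 higher (median -1.66). The oocyte linker histone h1m had 189.7 FPKM in TPM3(E151A) and 1230.1 FPKM in TPM3(WT) (log2 -2.69), buc, which organises the Balbiani body of the oocyte, had 57.5 and 364 FPKM (log2 -2.64), and the pluripotency factor pou5f3 had 3.07 and 29.2 FPKM (log2 -2.89). The member above 0 was ybx1, an RNA-binding protein of most tissues, with 1019 FPKM in TPM3(E151A) and 867 FPKM in TPM3(WT) (log2 0.23). In the ovary list, drawn up for somatic cells, 3 of 5 genes were lower and 0 higher by 2-fold (median -1.81). The lower ones were the oocyte growth factors bmp15 (11.5 against 54.1 FPKM, log2 -2.14) and gdf9 (5.23 against 20.9 FPKM, log2 -1.81) and the factor lhx8a (9.50 against 38.9 FPKM, log2 -1.92). The remaining members lay within 2-fold, the highest at log2 0.61. The list median became -0.27 over 7 genes with no FPKM minimum, and -1.02 over the 4 whose locus holds no other gene.

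Germ line genes that oocytes and male germ cells both use lay in between. The germ line helicase ddx4 (vasa) had 54.1 FPKM in TPM3(E151A), 4.85 FPKM in TPM3(E151G) and 32.9 FPKM in TPM3(WT), and the RNA-binding protein dazl had 75.7, 7.98 and 62.6 FPKM in the same order. Of the 2 Piwi proteins, piwil1 had 47.3 FPKM in TPM3(E151A) and 9.41 FPKM in TPM3(WT) (log2 2.21) and piwil2 had 13.7 and 12.8 FPKM (log2 0.09). Over 18 piRNA genes 2 were higher and 6 lower, with a median of -0.24 that became 0.08 under median-of-ratios scaling. The piRNA chaperone fkbp6 had 3.74 FPKM in TPM3(E151A) and 18.0 FPKM in TPM3(WT) (log2 -2.01), and asz1 had 12.3 and 32.2 FPKM (log2 -1.32). Of 11 germ plasm and germ line stem cell genes, 2 were higher and 4 lower (median -0.24), among them nanos3 with 7.18 FPKM in TPM3(E151A) and 25.9 FPKM in TPM3(WT) (log2 -1.72). These are bulk specimens, in which fewer cells of a type and less RNA per cell cannot be told apart. The share of gonad tissue and the sex of the fish behind each column are not given, and they cannot be told apart here from the genotype.

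**Figure D2:**
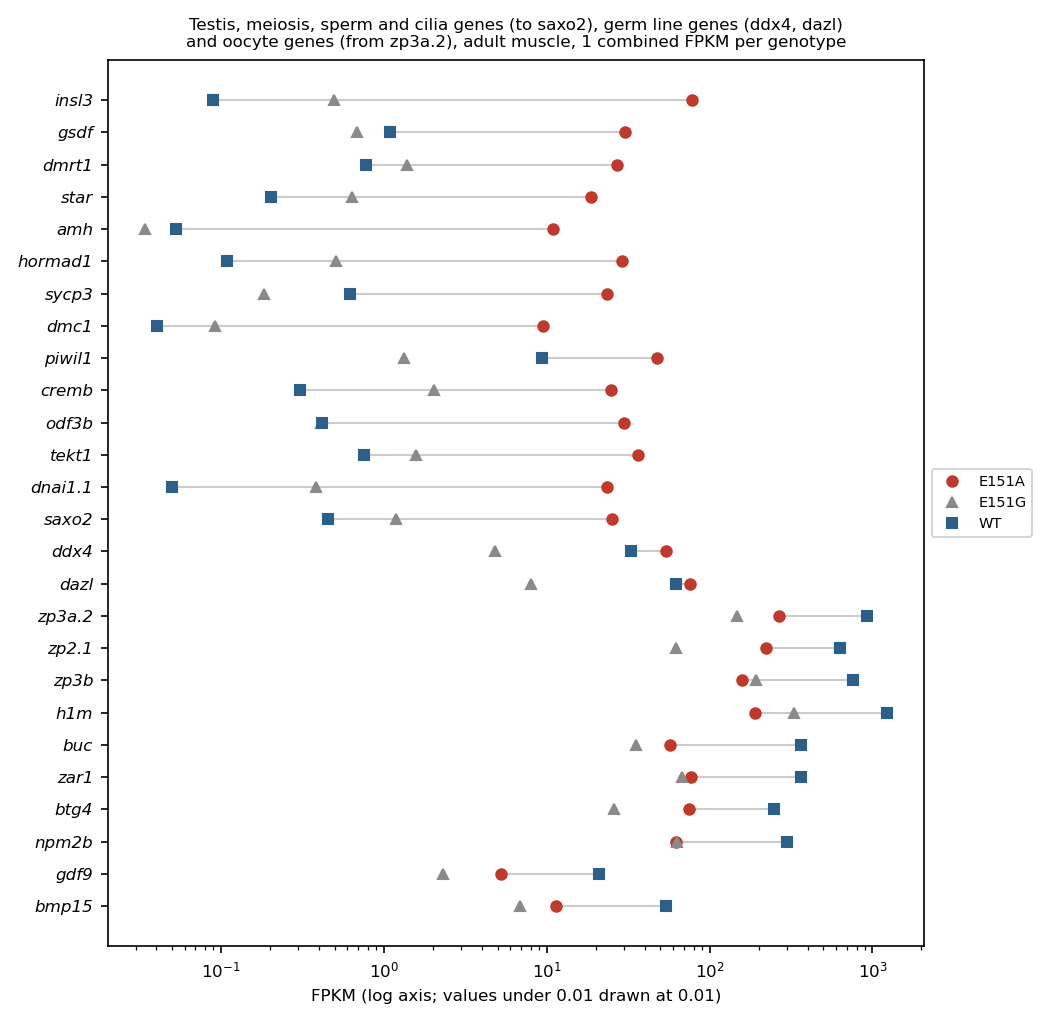
FPKM (log axis) of testis, meiosis, sperm and cilia genes (upper rows), of ddx4 and dazl, and of oocyte genes (lower rows) in adult TPM3(E151A), TPM3(E151G) and TPM3(WT) muscle, 1 combined value per genotype. TPM3(E151A) stands apart to the right in the upper rows (insl3 at 78.0 FPKM against 0.0900 in TPM3(WT)), and to the left of TPM3(WT) in the lower rows (zp3b at 158 FPKM against 754 in TPM3(WT)).

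Chaperones of the ER were lower in TPM3(E151A). Of 63 genes on the 3 ER folding lists, 35 were lower and 0 higher by at least 2-fold, beside 19.2% and 9.90% of all genes, and the median was -1.16. The gene with the highest FPKM of these in TPM3(WT), hspa5 (BiP), the Hsp70 of the ER lumen at chr5:2440675-2448586, had 111 FPKM in TPM3(E151A) and 646 FPKM in TPM3(WT) (log2 -2.53). The Hsp90 of the ER, hsp90b1 (Grp94), had 56.8 and 415 FPKM (log2 -2.85), and hyou1 (Grp170), the exchange factor that resets BiP, had 9.07 and 91.5 FPKM (log2 -3.20). The second exchange factor SIL1 had 5.80 and 19.2 FPKM (log2 -1.57). BiP and both of its exchange factors were thus lower together.

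The Hsp40 partners that load clients on BiP ranged from near 0 to far below it. The stress-induced dnajb9b had 2.29 FPKM in TPM3(E151A) and 18.7 FPKM in TPM3(WT) (log2 -2.59), while its paralogue dnajb9a had 1.52 and 1.23 FPKM (log2 0.18). The client binder dnajc3a had 6.02 and 27.9 FPKM (log2 -2.04), dnajb11 had 15.9 and 37.5 FPKM (log2 -1.19), and the reductase dnajc10 had 4.97 and 15.3 FPKM (log2 -1.45). Of the secreted ER stress proteins, manf had 19.3 FPKM in TPM3(E151A) and 60.4 FPKM in TPM3(WT) (log2 -1.59), whereas its relative cdnf had 11.3 and 5.56 FPKM (log2 0.91). Over this list 13 of 18 genes were lower and 0 higher by 2-fold (median -1.51). Its summed FPKM was 334 in TPM3(E151A), 331 in TPM3(E151G) and 1557 in TPM3(WT), so both mutants lay below TPM3(WT). The mutant columns share this WT column, and the E151G column has a larger FPKM sum over all genes, so its levels are on another scale.

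The lectin cycle, which holds glycoproteins until they fold, showed 12 of 16 genes lower and 0 higher (median -1.38). The calreticulin calr3a had 64.3 FPKM in TPM3(E151A) and 198 FPKM in TPM3(WT) (log2 -1.61), its paralogue calr had 5.90 and 20.7 FPKM (log2 -1.65), and the membrane-bound calnexin (canx) had 23.4 and 41.5 FPKM (log2 -0.80). The folding sensor uggt1 had 2.33 and 7.200 FPKM (log2 -1.30), glucosidase II subunit prkcsh had 17.0 and 52.8 FPKM (log2 -1.58), and the cargo lectin lman1 had 28.8 and 101 FPKM (log2 -1.77). Calmegin (clgn), the calnexin relative that mouse spermatids need for fertile sperm, was the member above 0, with 12.8 FPKM in TPM3(E151A) and 7.02 FPKM in TPM3(WT) (log2 0.79).

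Among the enzymes that make disulfides and turn prolines, 10 of 29 were lower and 0 higher by 2-fold (median -0.60). The main disulfide isomerase p4hb had 98.3 FPKM in TPM3(E151A) and 469.8 FPKM in TPM3(WT) (log2 -2.24), pdia4 had 40.4 and 189 FPKM (log2 -2.19), and pdia6 had 31.7 and 72.1 FPKM (log2 -1.16). The glycoprotein isomerase pdia3 was nearer, with 119 and 182 FPKM (log2 -0.60), and the proline isomerase ppib had 157 and 264 FPKM (log2 -0.75). The oxidase ero1a, which feeds the isomerases, had 3.87 FPKM in TPM3(E151A) and 10.1 FPKM in TPM3(WT) (log2 -1.19). The collagen chaperones serpinh1b (2.67 against 1.43 FPKM, log2 0.60) and serpinh1a (3.18 against 2.39 FPKM, log2 0.30) were low in both genotypes and not lower in TPM3(E151A).

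**Figure D3:**
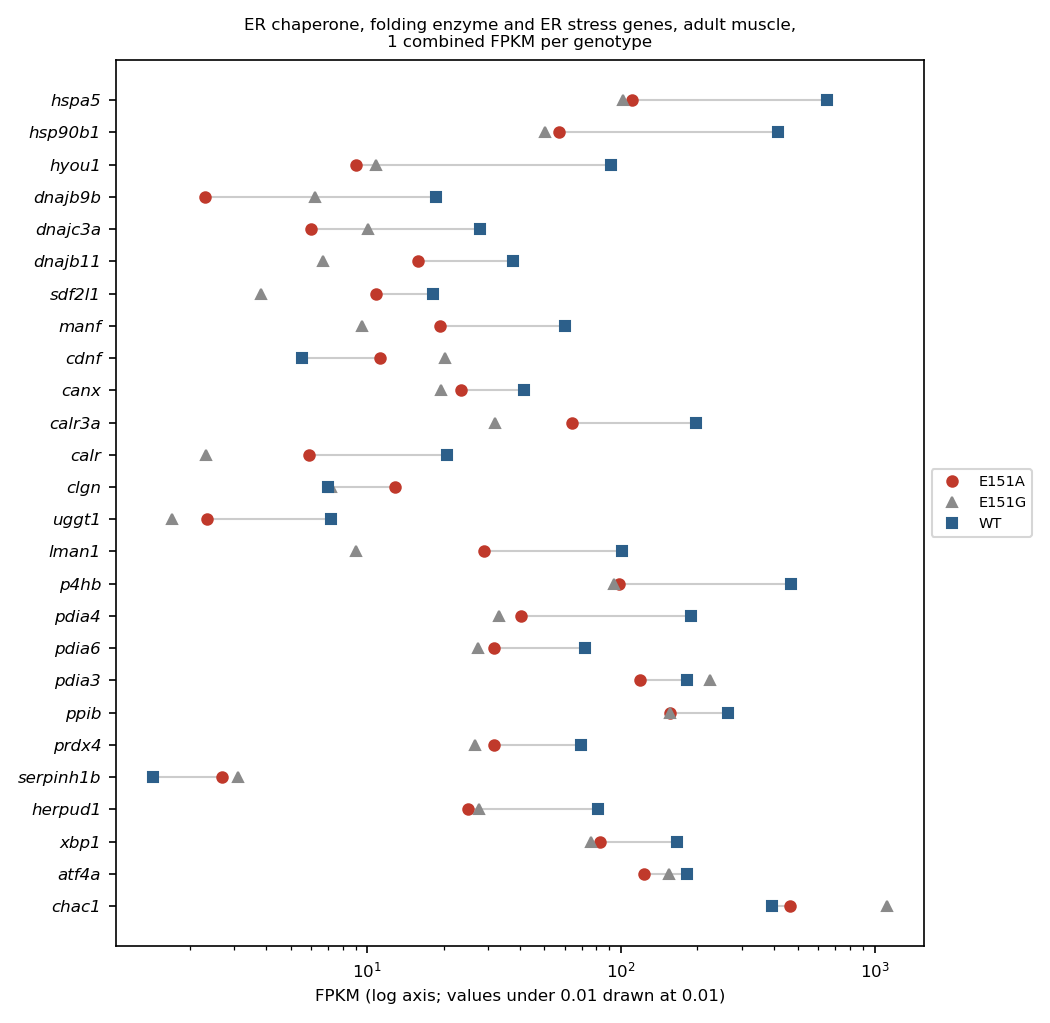
FPKM (log axis) of 26 ER chaperone, folding enzyme and ER stress genes in adult TPM3(E151A), TPM3(E151G) and TPM3(WT) muscle, 1 combined value per genotype. TPM3(E151A) lies to the left of TPM3(WT) for most of the chaperones (hspa5 at 111 FPKM against 646 in TPM3(WT)), and cdnf, clgn, serpinh1b and chac1 lie the other way.

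The sensors and factors of the unfolded protein response lay nearer to all genes than the chaperones they control did, with 1 of 22 higher, 2 lower and a median of -0.37. The factor xbp1 had 83.0 FPKM in TPM3(E151A) and 166 FPKM in TPM3(WT) (log2 -0.99), atf6 had 4.24 and 7.30 FPKM (log2 -0.67), and the kinase eif2ak3 (PERK) had 38.4 and 72.8 FPKM (log2 -0.90). The ER membrane protein herpud1 had 25.1 FPKM in TPM3(E151A) and 81.6 FPKM in TPM3(WT) (log2 -1.66). Of the genes on the arm of the response that passes through PERK and atf4, atf3 had 8.44 and 2.60 FPKM (log2 1.39). The pseudokinase trib3 had 37.3 and 21.9 FPKM (log2 0.74) and the glutathione-degrading chac1 had 463 and 393 FPKM (log2 0.24), both within 2-fold. PERK itself, given above, lay below 0. Genes with atf symbols had 1 of 11 higher and 2 lower by 2-fold (median -0.57), so no direction of this arm can be read. The splicing of xbp1, which reports its activation, cannot be read from gene-level FPKM.

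In the lists of genes that hand proteins into, out of and away from the ER, the share of lower genes was nearer to the 19.2% of all genes. ER-associated degradation had 2 of 27 genes higher and 5 lower (median -0.45), with the ligase syvn1 at 16.9 FPKM in TPM3(E151A) and 43.1 FPKM in TPM3(WT) (log2 -1.30) and the ligase amfrb at 33.0 and 7.86 FPKM (log2 1.94). Translocon, signal peptidase and oligosaccharyl transferase genes had 0 of 45 higher and 12 lower (median -0.73), and 42 of them lay below 0 with the columns as deposited. The translocon channel sec61a1l had 36.8 FPKM in TPM3(E151A) and 97.2 FPKM in TPM3(WT) (log2 -1.38), and the small channel subunit sec61g had 944 and 645 FPKM (log2 0.55). Coat and cargo receptor genes of the path to the Golgi had 0 of 48 higher and 11 lower (median -0.64), among them the coat subunit copa with 12.6 and 31.9 FPKM (log2 -1.27).

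In embryos of 2 days, 0 of 64 ER folding genes were higher and 0 lower by 2-fold in TPM3(E151A) (median 0.06). Embryonic hspa5 stood at 86.5 FPKM in TPM3(E151A) and 92.5 FPKM in TPM3(WT), and hsp90b1 at 63.2 and 69.0 FPKM. Whether the adult and embryo differences differ was not tested, and the embryos had 1 library per genotype. In adult TPM3(E151G) muscle hspa5 stood at 102, hsp90b1 at 50.3 and hyou1 at 10.9 FPKM, beside 111, 56.8 and 9.07 FPKM in TPM3(E151A). The egg envelope genes, given above, were also lower in both mutants (1473 and 908 summed FPKM against 5238 in TPM3(WT)), and their part in the ER result was not tested.

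Cytosolic chaperones did not follow those of the ER. Of 44 genes, 11 were higher and 5 lower by 2-fold, with a median of 0.08. Small heat shock proteins, several of which guard the Z-disc, made up most of the higher genes. The muscle form hspb6 had 322 FPKM in TPM3(E151A) and 56.5 FPKM in TPM3(WT) (log2 2.49), hspb9 had 84.3 and 19.3 FPKM (log2 2.07), hspb8 had 25.2 and 5.66 FPKM (log2 1.98) and hspb1 had 186 and 85.1 FPKM (log2 1.11). The constitutive Hsp70 hspa8 had 512 FPKM in TPM3(E151A) and 763 FPKM in TPM3(WT) (log2 -0.57), and the Hsp90 of muscle, hsp90aa1.1, had 36.5 and 20.7 FPKM (log2 0.79). Lower by 2-fold were the mitochondrial chaperonin hspd1 (19.0 against 72.9 FPKM), the co-chaperones stip1 and ahsa1b, and the exchange factors hspa4a and hspa4b. The 8 genes of the chaperonin TRiC, which folds actin and tubulin, lay within 2-fold (median -0.44).

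Genes of DNA replication and mitosis were lower in large part. Of 63 DNA replication genes, 34 were lower and 4 higher by 2-fold (median -1.09). Of 71 mitosis genes, 45 were lower and 2 higher (median -1.28). The egg envelope and oocyte factor lists, given above, were lower too (medians -1.88 and -1.66). The part of oocyte RNA in the replication and mitosis lists was not tested. The replication brake gmnn (geminin) had 106 FPKM in TPM3(E151A) and 557 FPKM in TPM3(WT) (log2 -2.38), and the replicative helicase subunit mcm6l had 10.8 and 74.3 FPKM (log2 -2.68). Its paralogue mcm6 went the other way, with 8.88 FPKM in TPM3(E151A) and 0.468 FPKM in TPM3(WT) (log2 2.75). The pair mcm3l (18.7 against 95.7 FPKM, log2 -2.30) and mcm3 (4.97 against 0.283 FPKM, log2 2.22) did the same. The tables list rrm2, the small subunit of ribonucleotide reductase, under 2 gene IDs. ENSDARG00000078069 had 73.0 FPKM in TPM3(E151A) and 542 FPKM in TPM3(WT) (log2 -2.87), and ENSDARG00000020711 had 94.6 and 20.1 FPKM (log2 2.18). How reads that suit both copies were counted is not known, so paralogue pairs of this kind are uncertain.

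The cyclins and spindle genes were lower more evenly. The germ line cyclin ccna1 had 92.3 FPKM in TPM3(E151A) and 639.8 FPKM in TPM3(WT) (log2 -2.78), and ccnb1 had 136 and 395 FPKM (log2 -1.53). The spindle factor tpx2 had 28.6 and 130.5 FPKM (log2 -2.15), and the condensin subunit smc4 had 5.30 and 38.6 FPKM (log2 -2.65). In adult TPM3(E151G) muscle, set against the same TPM3(WT) column but on another scale, the medians were -1.83 for replication and -2.37 for mitosis. In embryos, with 1 library per genotype, the same lists leaned the other way, with medians of 0.67 for replication and 0.60 for mitosis. By 2-fold 2 of 61 and 1 of 68 genes were higher there, beside 0.990% of all genes. Embryo medians of unrelated lists also lay off 0, such as 0.48 for cytosolic ribosomal proteins and -0.35 for potassium channels. Of the histone list, 4 of 17 were higher and 4 lower, with the replacement linker histone h1f0 at 227 FPKM in TPM3(E151A) and 37.5 FPKM in TPM3(WT) (log2 2.57). Read by symbol instead, genes with hist symbols had 1 of 24 higher and 9 lower (median -0.72). Their summed FPKM was 129 in TPM3(E151A) and 103 in TPM3(WT). Of 32 tubulin genes and their modifiers, 5 were higher and 5 lower. The higher ones besides tuba7l were ttll2, ttll3, ttll6 and ttll9 of the family of tubulin glycylases and glutamylases, such as ttll3 with 9.50 FPKM in TPM3(E151A) and 0.746 FPKM in TPM3(WT) (log2 2.59). The lower ones included tuba4l with 218 and 832 FPKM (log2 -1.93).

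Factors that make ribosomes were lower, and proteins of the cytosolic ribosome were not. Nucleolar factors had 22 of 33 genes lower and 0 higher by 2-fold (median -1.24), with nucleolin (ncl) at 58.5 FPKM in TPM3(E151A) and 223 FPKM in TPM3(WT) (log2 -1.91) and the snoRNA protein dkc1 at 17.8 and 59.13 FPKM (log2 -1.68). The list of cytosolic ribosomal proteins had a median of 0.39 over 90 genes, with 80 above 0. Its 5 members lower by 2-fold, rpl7l1, rps19bp1, rps6kc1, rps6kb1b and rps6ka3a, are kinases of ribosomal protein S6 or factors with like names, not proteins of the cytosolic ribosome. The stalk protein rplp0 had 1961 FPKM in TPM3(E151A) and 1219.8 FPKM in TPM3(WT) (log2 0.68). Mitochondrial ribosomal proteins lay below 0 with the columns as deposited in 68 of 73 genes (median -0.63). By 2-fold 15 were lower, a share near the 19.2% of all genes. The lowest was mrpl1 with 8.22 FPKM in TPM3(E151A) and 38.5 FPKM in TPM3(WT) (log2 -2.10). Translation factors had 3 of 77 higher and 15 lower (median -0.39), the latter again near the share of all genes. The subunit joining factor eif5b had 4.17 and 38.0 FPKM (log2 -2.92), and the oocyte cap-binding protein eif4e1b had 41.0 and 118 FPKM (log2 -1.50).

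Of the lists of protein breakdown, that of the cathepsins had the lowest median. Proteasome subunits had a median of -0.31 over 43 genes, which became 0.03 under median-of-ratios scaling. One of the 2 lower members, psmc3ip, is the meiotic gene given above. The muscle ubiquitin ligase trim63a (MuRF1) had 129.6 FPKM in TPM3(E151A), 682 FPKM in TPM3(E151G) and 97.6 FPKM in TPM3(WT), and fbxo32 (atrogin-1) had 90.7, 545 and 52.9 FPKM in the same order. These 2 atrophy genes were within 2-fold between TPM3(E151A) and TPM3(WT), and 2 of the 19 genes of their list were higher and 1 lower (median 0.47). The higher ones were trim55b and foxo1a, with 12.4 FPKM in TPM3(E151A) and 4.92 FPKM in TPM3(WT) (log2 1.18). Of 37 autophagy genes 3 were higher and 4 lower, among them the cargo receptor sqstm1 (43.0 against 18.5 FPKM, log2 1.17) and the lysosomal lamp2 (117 against 312 FPKM, log2 -1.41). Cathepsins and lysosomal genes had 5 of 23 lower and 0 higher (median -0.64), with a share of lower genes near the 19.2% of all genes. The protease ctsl.1 had 11.1 FPKM in TPM3(E151A) and 318 FPKM in TPM3(WT) (log2 -4.72), and ctsbb had 1.94 and 39.7 FPKM (log2 -3.79).

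With the columns as deposited, the medians of the energy metabolism lists lay between the median (-0.22) and the upper quartile (0.41) of all genes. The mRNAs of the mitochondrial genome lay nearest to that quartile. The mRNAs of the mitochondrial genome were above 0 in 12 of 13 genes with a median of 0.40, and none was past 2-fold. The oxidase subunit mt-co1 had 75449 FPKM in TPM3(E151A) and 40205 FPKM in TPM3(WT) (log2 0.91), and mt-atp8 had 7996 and 9392 FPKM (log2 -0.23). Nuclear genes of complexes I to V had a median of 0.14 over 94 genes, with 3 higher and 1 lower by 2-fold. Glycolysis and glycogen genes had a median of 0.04 over 40 genes with 3 higher and 5 lower, TCA cycle genes a median of 0.05 over 29 genes with 4 higher and 0 lower, and fatty acid oxidation genes a median of -0.07 over 27 genes with 1 higher and 0 lower. The kinases pdk2a (34.6 against 10.7 FPKM, log2 1.603) and pdk4 (17.3 against 6.81 FPKM, log2 1.23), which close the path of pyruvate into mitochondria, were higher. The carnitine transferase cpt1ab, which brings fatty acids into mitochondria, had 22.0 FPKM in TPM3(E151A) and 10.1 FPKM in TPM3(WT) (log2 1.05). The glycolysis genes lower by 2-fold were tpi1a, hk2, ugp2b, pkma and pgam1a, led by tpi1a with 20.1 FPKM in TPM3(E151A) and 64.0 FPKM in TPM3(WT) (log2 -1.62), and the abundant gapdh had 4670.3 and 4841 FPKM (log2 -0.05). Of the creatine kinases, the brain form ckbb had 126 FPKM in TPM3(E151A) and 471 FPKM in TPM3(WT) (log2 -1.89) and ckba had 100.4 and 14.3 FPKM (log2 2.73). Of 31 genes of fatty acid and sterol synthesis 0 were higher and 5 lower (median -0.15), and of 31 oxidative stress genes 5 were higher and 5 lower, with the uncoupling protein ucp1 at 71.2 FPKM in TPM3(E151A), 517 FPKM in TPM3(E151G) and 16.3 FPKM in TPM3(WT).

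Immediate early genes, which many cells raise within minutes of a stimulus, were higher as a group. Of 40 members, 19 were higher and 0 lower by 2-fold (median 0.87). The factor fosab had 38.9 FPKM in TPM3(E151A), 19.0 FPKM in TPM3(E151G) and 10.0 FPKM in TPM3(WT), egr1 had 24.5, 19.2 and 6.14 FPKM, and gadd45ba had 268, 443 and 96.5 FPKM in the same order. TPM3(E151A) thus lay above TPM3(WT) for these 3 genes, while the TPM3(E151G) values are on another scale. Of 37 clock genes, 7 were higher and 2 lower (median 0.16). The repressor bhlhe40 had 19.4 FPKM in TPM3(E151A) and 3.12 FPKM in TPM3(WT) (log2 2.31), nfil3-6 had 26.5 and 4.69 FPKM (log2 2.28) and the core activator arntl1a had 7.92 and 17.7 FPKM (log2 -1.07). The hour of sampling was not stated.

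Markers of cells other than muscle fibres were also unequal. Of 13 erythrocyte genes, 10 were higher and 1 lower by 2-fold (median 1.64), and they summed to 3086 FPKM in TPM3(E151A), 1449 in TPM3(E151G) and 789.6 in TPM3(WT). The adult globin hbaa1 had 1548 FPKM in TPM3(E151A) and 179.8 FPKM in TPM3(WT) (log2 3.10), and the heme synthesis gene alas2 had 35.6 and 6.49 FPKM (log2 2.29). Digestive enzymes and enterocyte genes had 14 of 25 higher and 4 lower (median 1.15), with the elastase ela2 at 67.9 FPKM in TPM3(E151A), 94.2 FPKM in TPM3(E151G) and 4.16 FPKM in TPM3(WT). Hepatocyte genes had 5 of 17 higher and 1 lower (median 0.90), with the fatty acid carrier fabp10a at 13.8 FPKM in TPM3(E151A) and 1.87 FPKM in TPM3(WT) (log2 2.37). Leukocyte genes had 7 of 31 higher and 3 lower (median 0.50), with the neutrophil lysozyme lyz at 397 and 102 FPKM (log2 1.96) and macrophage mpeg1.2 at 18.7 and 2.58 FPKM (log2 2.46). Interferon response genes had a median of 0.58 over 21 genes with 2 higher and 1 lower.

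Further marker lists gave medians on both sides of 0. Keratins and epithelial markers had a median of 0.23 over 30 genes with 6 higher and 1 lower, the lower one being epcam with 69.0 FPKM in TPM3(E151A) and 583 FPKM in TPM3(WT) (log2 -3.06). Skeletal markers had a median of -0.26 over 14 genes, with the phosphate regulator phex at 27.3 and 162 FPKM (log2 -2.52). Adipocyte and endothelial genes had a median of 0.13 over 21 genes, Schwann cell and myelin genes 0.41 over 19 genes, and neuronal genes -0.20 over 21 genes, which became 0.10 under median-of-ratios scaling. Lens crystallins had a median of 0.73 over 9 genes with 4 higher and 0 lower. That median became 0 over 61 genes with no FPKM minimum, and 0.03 over the 5 whose locus holds no other gene. Photoreceptor genes had a median of 0.52 over 3 genes, which became 0.0085 over 24 genes with no minimum. Cardiac genes had a median of 0.44 over 7 genes. The lens list summed to 22.8 FPKM in TPM3(E151A) and 13.4 FPKM in TPM3(WT), and the photoreceptor list to 7.08 and 3.32 FPKM, so both were low. The part of these cells in any gene list above was not tested.

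**Figure D4:**
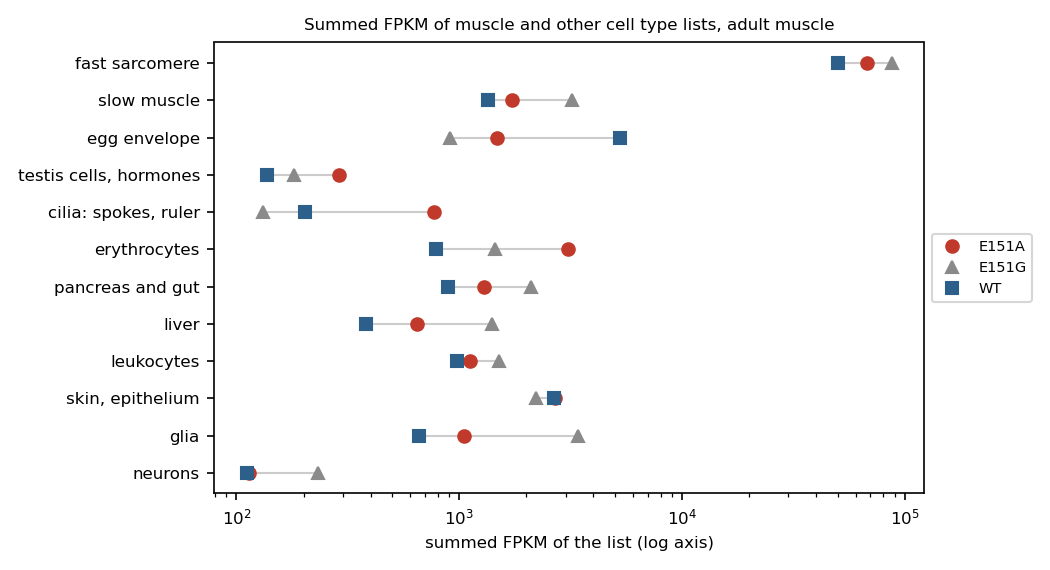
Summed FPKM (log axis) of muscle lists and of marker lists of other cell types in adult TPM3(E151A), TPM3(E151G) and TPM3(WT) muscle, 1 point per genotype. Egg envelope genes are lower (1473 against 5238) and erythrocyte genes higher (3086 against 789.6) in TPM3(E151A) than in TPM3(WT), while the skin lists coincide (2681 and 2656).

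Ion channels, carriers and matrix genes gave counts in both directions, beside 9.90% higher and 19.2% lower of all genes. Potassium channels, solute carriers and collagens lay near or under these shares, so the members named below are single genes. Of 7 voltage-gated sodium channel genes 0 were higher and 2 lower (median 0.29), with the muscle channel scn4ab at 15.1 FPKM in TPM3(E151A) and 12.1 FPKM in TPM3(WT) (log2 0.30). Calcium channel subunits had 3 of 15 higher and 1 lower (median 0.14), with the voltage sensor of the triad cacna1sb at 14.3 and 10.8 FPKM (log2 0.38) and the muscle subunit cacng1a at 59.07 and 29.0 FPKM (log2 1.002). Potassium channel subunits had 3 of 30 higher and 4 lower (median 0.23), a median that became -1.26 over the 6 genes with an FPKM of at least 5. The subunit kcns3b had 4.50 FPKM in TPM3(E151A) and 20.2 FPKM in TPM3(WT) (log2 -1.95). Of 283 solute carriers 36 were higher and 38 lower (median 0.01). The monocarboxylate carrier relative slc16a9a had 50.0 FPKM in TPM3(E151A) and 5.93 FPKM in TPM3(WT) (log2 2.88), the organic cation carrier slc22a2, known from mammalian kidney, had 33.4 and 4.40 FPKM (log2 2.67), and the dicarboxylate carrier slc13a2 had 3.06 and 17.7 FPKM (log2 -2.20). Collagens had 3 of 31 higher and 1 lower (median 0.05), the lower one being col4a3bpa, a ceramide carrier and not a collagen. No gene of 36 other matrix genes was past 2-fold (median 0.21). Of 46 cytochrome P450 genes 11 were higher and 6 lower (median 0.49).

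Developmental regulators had 3 of 111 genes higher and 9 lower (median 0.05), with the lower ones led by sox21a (2.95 against 16.7 FPKM), the oocyte factor bmp15 and sox11b (13.3 against 55.3 FPKM). Cadherins and protocadherins had 2 of 21 genes lower and 0 higher (median 0.08). Of the lower ones, cdh18a and dscc1, the latter is not a cadherin. The list of genes with quantitative PCR primers for the adult data had 6 compared members, all below 0 (median -0.74), though rpgrip1l turned to the other side under median-of-ratios scaling. The list was picked by the study from these very samples, so its direction is no independent evidence. The calpain capn12 had 0.235 FPKM in TPM3(E151A) and 1.53 FPKM in TPM3(WT) (log2 -1.04), cald1b, a caldesmon of thin filaments, had 0.272 and 1.31 FPKM (log2 -0.86), and the vitamin C carrier slc23a2 had 1.09 and 2.68 FPKM (log2 -0.82). The calcium exchanger slc24a4a had 0.653 and 1.62 FPKM (log2 -0.67), the lipid flippase atp10a had 0.591 and 1.33 FPKM (log2 -0.55), and the ciliary transition zone gene rpgrip1l had 3.41 and 4.14 FPKM (log2 -0.22). The first 5 of these were low in both genotypes, close to the minimum of 1 FPKM.

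The extremes of the table held genes of no list as well. The mitochondrial tRNA genes AC024175.16 and AC024175.3 had 2285 and 907 FPKM in TPM3(E151A). They were listed at 0 in TPM3(WT), where their neighbours on the mitochondrial genome were abundant, and also in adult TPM3(E151G) and both embryo columns. The methyltransferase mettl10 was listed at 0 in adult TPM3(E151A) and TPM3(E151G) and had 178 FPKM in adult TPM3(WT). In embryos mettl10 was listed at 0 in TPM3(WT) and TPM3(E151A) alike. The histocompatibility gene mhc2dab had 0.350 FPKM in TPM3(E151A), 109.8 FPKM in TPM3(E151G) and 47.3 FPKM in TPM3(WT), and mhc1uba was listed at 0 in TPM3(E151A) and had 14.9 FPKM in TPM3(WT). Histocompatibility genes are known to vary between individual zebrafish in sequence and in copy number. The C-reactive protein gene crp2 had 407 FPKM in TPM3(E151A) and 4559 FPKM in TPM3(WT) (log2 -3.48), and cuzd1.1, which carries a zona pellucida domain, had 0.473 and 53.7 FPKM (log2 -5.21). The zinc finger gene znf1179 (34.1 against 0.268 FPKM, log2 4.79) and the chemokine ccl36.1 (33.6 against 0.464 FPKM, log2 4.56) were among the genes with the largest ratios that were also high in TPM3(E151G), at 39.5 and 46.3 FPKM.

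Across the whole table, the higher and the lower genes differed in level. Of 1997 genes whose higher FPKM of both genotypes was 30 to 100, 37.6% were lower and 7.11% higher by 2-fold. Of 3895 genes at 2 to 5 FPKM, 8.63% were lower and 12.9% higher. Of the 87 most abundant genes, the top class in the plot by level, 10.3% were lower and 4.60% higher. Genes with systematic names (si:, zgc: or a clone name) made up 34.6% of the higher genes, 19.9% of the lower genes and 19.2% of all genes compared. By chromosome, between 6.29% (chromosome 13) and 12.8% (chromosomes 22 and 25) of genes were higher and between 14.9% (chromosome 6) and 24.2% (chromosome 21) were lower. Chromosome 4, whose long arm is tied to sex in wild zebrafish, had 8.71% higher and 15.9% lower. Of 1011 genes under 0.1 FPKM in both embryo columns, 31.8% were higher and 30.1% lower in adults, against 4.84% and 18.2% of the 6631 genes at 10 FPKM or more in embryos.

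**Figure D5:**
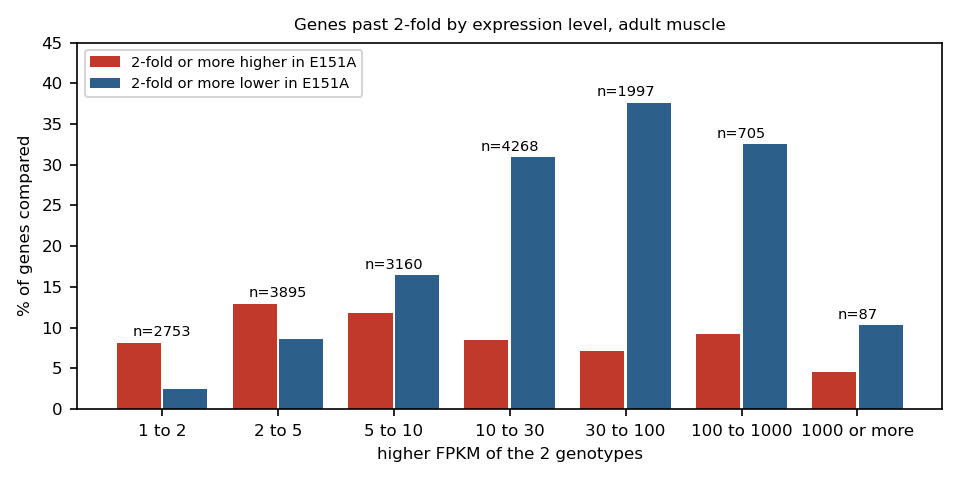
Percent of genes that were higher (red) or lower (blue) by 2-fold or more in adult TPM3(E151A) than in TPM3(WT), by the higher FPKM of both genotypes, with the number of genes compared above each pair of bars. The share of lower genes is largest at 30 to 100 FPKM (37.6%), and the share of higher genes is largest at 2 to 5 FPKM (12.9%).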

How the data were processed

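RNA from muscle of adult AB zebrafish of 6 months, 2 libraries per genotype, was sequenced on an Illumina instrument. The design text names a KAPA RNA HyperPrep kit with RiboErase, while the extract protocol names an Agilent SureSelect strand-specific kit. Trimming by the authors was done with Trimmomatic 0.36 and alignment with HISAT2 against GRCz11. Base calling was done with bcl2fastq 2.20 by the methods of the study. Further tools in the submitters' notes are DESeq2 1.22.2 and featureCounts 1.6.3, with no role given. The deposited FPKM values hold 1 column per genotype in which both libraries are already combined, so the depth is unknown and neither an error nor a test between fish was possible. The deposited tables also hold the authors' own ratios, p-values and q-values and lists of genes past them, which were not used.

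Genes that reached 1 FPKM in either genotype were compared as log2((E151A + 1)/(WT + 1)), that is, on FPKM with a pseudocount of 1. A gene past a 2-fold limit is called higher or lower. Genes at or under 1e-05 FPKM are given as listed at 0, with no fold. The same columns of the tables for TPM3(E151G) and for embryos were read in the same way. Gene lists (75, fixed by symbol) were described by the number of members past 2-fold and the median, beside all genes. The members and lists were chosen with earlier results of these data known. Named were the 20 largest and 20 smallest ratios of genes with a symbol, up to 8 members of each list by ratio or FPKM, the genes the study measured by quantitative PCR, the 10 most abundant genes and the tropomyosins. Other genes named were chosen after their values were seen. Alternatives were other scalings, pseudocounts, FPKM minimums, fold limits and sets of genes. The calculation was tested on simulated data. Python 3.11.15, numpy 2.4.6, pandas 2.3.3 and matplotlib 3.10.9 were used.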

Additional observations from a re-analysis of the deposited data

Results flagged for a closer look

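In 10 genes of the lists, the difference between TPM3(E151A) and TPM3(WT) was 2-fold or more in adult muscle and 2-fold or more in the opposite direction in embryos, which had 1 library per genotype. Of all 13832 genes compared in both, 900 were higher in adults by 2-fold or more. Of these, 17 were lower and 12 were higher in embryos by as much. Lower in adults by 2-fold or more were 2594 genes, of which 19 were higher and 7 were lower in embryos by as much. Such differences were rare over all genes of the embryo comparison, at 0.990% higher and 0.996% lower. Whether the adult and embryo differences differ was not tested. The gene CCDC39 of the axonemal ruler had a log2 ratio of 2.32 in adults and -1.54 in embryos. The keratin krt1-19d had 1.61 in adults and -1.08 in embryos, the nuclear receptor rorab 1.39 and -1.03, and the glucose carrier slc5a2 1.02 and -1.70, in the same order. The remaining genes were lower in adults and higher in embryos. Of the genes of DNA synthesis and mitosis, rrm2 (ENSDARG00000078069) had a log2 ratio of -2.87 in adults and 4.51 in embryos. Its partner subunit rrm1 had -1.75 and 1.02, and the phosphatase cdc25b had -1.55 and 1.02. The other gene ID of rrm2, given above, was higher in adult TPM3(E151A). How reads that suit both copies were counted is not known, so the values of rrm2 are uncertain. The transcription factor sox11b had -1.98 in adults and 1.01 in embryos, the receptor notch1a had -1.25 and 1.24, and the osteoclast phosphatase acp5a had -1.38 and 1.16. Embryo levels of some of these genes were low, with CCDC39 at 0.989 FPKM in TPM3(E151A) and 4.80 FPKM in TPM3(WT). In the same order, slc5a2 had 0.0268 and 2.34 FPKM and acp5a had 2.89 and 0.742 FPKM.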

How the results depend on the processing

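Counts of genes depended on the scaling and the limits. The 1670 higher genes became 944 with an FPKM minimum of 5, 3180 with a fold limit of 1.5 and 668 with a fold limit of 3, and the 3231 lower genes became 1896 under median-of-ratios scaling, 5878 with a fold limit of 1.5 and 988 with a fold limit of 3. The other 16 of 22 recalculated counts stayed within 1.5 times, among them those without gonad, cilia and cell cycle genes (1525 higher, 3091 lower) and without genes that share a locus (1157 and 2362), both chosen after seeing the data. The counts with no FPKM minimum are also among them and could not change. With a pseudocount of 1, a gene past 2-fold has at least 1 FPKM in 1 genotype. With a pseudocount of 0.1, list medians moved to 2.08 (testis), 3.39 (synaptonemal complex and cohesin), 1.56 (recombination), 3.03 (dynein arms), 3.18 (spokes and central pair) and 5.82 (acrosome, fusion and sperm channels). With an FPKM minimum of 5 the testis median was 2.97 and the erythrocyte median 2.17, which was 0.997 with no minimum. The ovary, lens and photoreceptor medians with no minimum were -0.27, 0 and 0.0085. The median over all genes turned to 0.0899 under median-of-ratios scaling, as did those of piRNA genes (0.0849), proteasome genes (0.0314) and neuronal genes (0.0958). The potassium channel median turned to -1.26 with an FPKM minimum of 5, and the median of skeletal markers to 0.0948 with no minimum. Of 656 recalculated list medians 630 moved by less than 0.5 without turning, a turn being counted where the median was at least 0.2 in size. Of 4347 recalculated ratios of named genes 4242 moved by less than 0.5, and none of a gene past 2-fold changed sign. Leaving out a library was planned and could not be run. No paired analysis was possible because the files give 1 combined FPKM per adult genotype.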

Other observations

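Gene families read from their symbols, chosen after their values were seen, added groups outside the lists. The pimr family of Pim-related kinases had 42 compared members. Of these, 38 were higher and 0 lower by 2-fold in TPM3(E151A) (median log2 ratio 1.56), beside 9.90% and 19.2% of all genes. The 42 members summed to 109 FPKM in TPM3(E151A), 6.89 FPKM in TPM3(E151G) and 1.66 FPKM in TPM3(WT), where 25 of them were listed at 0. Given that sum in TPM3(WT), nearly all passed the minimum of 1 FPKM only through TPM3(E151A). Their shared direction was thus largely set by that minimum. Members are similar in sequence, so reads can be shared among them. Small heat shock genes (hspb) had 8 of 10 members higher and 0 lower (median 1.24), summing to 788 FPKM in TPM3(E151A), 1093 FPKM in TPM3(E151G) and 218 FPKM in TPM3(WT).

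Several families of RNA processing and transcription, picked for their low values, had most or many members lower, while others did not, such as the splicing factors srsf with 3 of 18 lower and 0 higher (median -0.02). Of the exosome subunits (exosc), which degrade and trim RNA, 9 of 11 were lower and 0 higher (median -1.32), summing to 124 FPKM in TPM3(E151A) and 319 FPKM in TPM3(WT). Of the basal transcription factors (gtf), 15 of 23 were lower and 0 higher (median -1.07), and of the nucleoporins (nup), 11 of 20 were lower and 0 higher (median -1.02). Of the DEAD box helicases (ddx), 17 of 35 were lower and 1 higher (median -0.998), and of the augmin subunits (haus), which branch spindle microtubules, 5 of 6 were lower and 0 higher (median -1.60). These families are expressed in dividing cells and in oocytes as well as in muscle, and the part of such cells was not tested.

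The class of genes with the largest share of lower members was misc_RNA, with 33 of 38 lower by 2-fold. The 33 lower ones were copies of the signal recognition particle RNA on chromosome 11, between 11355182 and 16189940 of GRCz11, of which 78 were listed and 36 compared. They summed to 12.2 FPKM in TPM3(E151A), 23.2 FPKM in TPM3(E151G) and 186 FPKM in TPM3(WT), and in embryos to 12.2 FPKM in TPM3(E151A) and 7.04 FPKM in TPM3(WT). A copy on chromosome 3 had 19.5 FPKM in TPM3(E151A), 84.1 FPKM in TPM3(E151G) and 13.5 FPKM in TPM3(WT). The copies are near-identical, so their separate values are uncertain. All 36 compared copies on chromosome 11 had at least 1.02 FPKM in TPM3(WT) and at most 1.51 FPKM in TPM3(E151A). Their shared direction was thus in part set by the minimum of 1 FPKM. The 1 Mb window of chromosome 11 from 12000001 to 13000000, which holds part of these copies, had 16 of 49 compared genes higher and 24 lower, among 1154 windows with at least 5 genes. Of the 16 higher genes there 15 share 1 locus, so they may not be separate signals. The 16 genes had 1.44 to 4.77 FPKM in TPM3(E151A) and at most 0.0856 FPKM in TPM3(WT). All of them thus reached the minimum of 1 FPKM only through TPM3(E151A), so they could only lie above 0. The window was picked for its counts, after the values were seen.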
